A study of Mus musculus with 4 samples.

Results

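The 37 transcripts described here are made in the oocyte, the germ cell at the centre of each ovarian follicle. They were taken by name from a list of oocyte genes, and each of the 37 names was found among the 28611 rows of the expression table. The study examined how histone deacetylase 3 (HDAC3) in granulosa cells (GCs), the somatic cells that surround the oocyte, bears on oocyte meiosis. There were 2 libraries of Hdac3flox/flox and 2 of Hdac3cKO ovarian RNA, all from C57BL/6 females at 24 days of age. Mice of both genotypes carried floxed Hdac3 alleles and received a single intraperitoneal dose of tamoxifen (20 mg per kg) when 18 days old, and only Hdac3cKO mice also carried the Foxl2-CreERT2 transgene, a tamoxifen-dependent Cre recombinase under the control of Foxl2. Foxl2 is a gene of GCs, so the deletion was aimed at GCs and not at the oocytes. The control mice lacked the Cre transgene, so an effect of Cre itself cannot be told apart from that of the deletion. The labels name GCs as the cell type, whereas the protocol in the same labels took RNA from whole frozen ovaries, and the study's design text gives 2 mice for each group.

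Oocytes and GCs depend on each other. The oocyte secretes growth factors that act on the GCs around it, lays down the zona pellucida as its coat, and stores RNA and protein for the first divisions of the embryo. The GCs in turn keep the oocyte arrested in meiotic prophase until the ovulatory signal. In the mouse, a small set of transcription factors, among them FIGLA, NOBOX, LHX8 and SOHLH1, switches on much of this programme as follicles form and start to grow.

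The promoters of 4 members are printed because they show, on genes of different roles, the motif that FIGLA and other basic helix-loop-helix factors bind (the E-box, CANNTG) and the one that NOBOX binds (TAATTA or TAATTG, searched on both strands). Each sequence holds the 250 bases before the RefSeq gene start on GRCm38.p6, read 5′ to 3′ on the gene's own strand, with motif matches in capitals. Zp3 (chr5:135979855-135980104, plus strand) encodes a zona protein, Nlrp5 (chr7:23385639-23385888, plus strand) a subunit of the subcortical maternal complex of the egg, Bmp15 (chrX:6320725-6320974, minus strand) a secreted growth factor, and Dazl (chr17:50293621-50293870, minus strand) a germ cell RNA-binding protein.
Zp3: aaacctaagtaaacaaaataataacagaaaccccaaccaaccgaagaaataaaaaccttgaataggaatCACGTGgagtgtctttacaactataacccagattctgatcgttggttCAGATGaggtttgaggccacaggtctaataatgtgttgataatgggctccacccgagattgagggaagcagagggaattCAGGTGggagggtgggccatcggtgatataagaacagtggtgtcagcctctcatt
Nlrp5: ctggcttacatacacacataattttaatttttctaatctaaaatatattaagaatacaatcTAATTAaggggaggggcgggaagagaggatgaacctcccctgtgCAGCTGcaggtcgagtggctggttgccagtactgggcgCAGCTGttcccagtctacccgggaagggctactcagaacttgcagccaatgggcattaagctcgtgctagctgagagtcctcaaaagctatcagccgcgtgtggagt
Bmp15: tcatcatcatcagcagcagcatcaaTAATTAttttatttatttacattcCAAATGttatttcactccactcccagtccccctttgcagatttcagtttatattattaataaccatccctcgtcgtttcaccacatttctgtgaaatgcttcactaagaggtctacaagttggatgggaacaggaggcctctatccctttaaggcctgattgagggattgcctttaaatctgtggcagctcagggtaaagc
Dazl: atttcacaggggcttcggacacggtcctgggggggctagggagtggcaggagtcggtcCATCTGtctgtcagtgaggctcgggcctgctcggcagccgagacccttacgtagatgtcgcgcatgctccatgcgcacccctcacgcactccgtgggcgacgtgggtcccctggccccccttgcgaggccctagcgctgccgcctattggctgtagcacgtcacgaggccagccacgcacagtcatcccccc
The Zp3 window holds 3 E-boxes, of which CACGTG begins 181, CAGATG 134 and CAGGTG 55 bases before the start. The Nlrp5 window holds 2 copies of CAGCTG and 1 TAATTA. The Bmp15 window holds 1 E-box and 1 TAATTA, and the Dazl window holds 1 E-box, CATCTG, and no match to the NOBOX motif. RefSeq promoters were matched for 26 of the 37 members, some with more than 1 start, which gave 30 windows. CANNTG, which reads alike on both strands, stood in 23 of the 30 windows (76.7%), and in 66.2% of all 32851 promoter windows of the same length. TAATTA or TAATTG stood in 3 of the 30, against 11.3% of all windows, and a match of one motif cannot overlap a match of the other. These matches describe the letters only.

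The deposited values are RPKM, that is, reads per kilobase of gene length for a fixed number of reads in the library. The library totals behind them ran from 17621129 to 18452073 reads. Hdac3, the targeted gene, was called lower at 19.4 and 19.2 RPKM in Hdac3cKO against 24.4 RPKM in both Hdac3flox/flox libraries (log2 fold change −0.34 ± 0.032 as its standard error, limma adjusted p = 0.00935). Values were compared between genotypes as log2(RPKM + 0.1) with limma, over 15528 genes that reached 0.5 RPKM in at least 2 libraries. A gene counts as called where its adjusted p was under 0.05. Of all tested genes 7.68% were called higher and 11.0% lower in Hdac3cKO (10.5% and 8.73% with median-of-ratios scaling), and their median log2 fold change was −0.04. No source says whether each library came from 1 mouse, so the p-values measure only the spread between the 2 libraries of a genotype, which may be technical.

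Every oocyte transcript had reads in all 4 libraries, and their levels spanned 204-fold from Gdf9 to Khdc3. By the mean of the 4 libraries, 16 members lay above 10 RPKM and 7 below 2 RPKM. The highest were Gdf9, Padi6, Zp3, Nlrp14, Zp2, H1foo, Tle6 and Bcl2l10, and the lowest were Gpr3, Oog1 and Khdc3. Single members had between 7 and 2932 reads in a library, and 7 members had fewer than 100 reads in every library. Genes of male germ cells, such as protamines, served as a contrast, since an ovary should lack them. The 5 of them with a row in the table summed to between 0.251 and 0.529 RPKM per library, and none passed the filter.

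**Figure D1:**
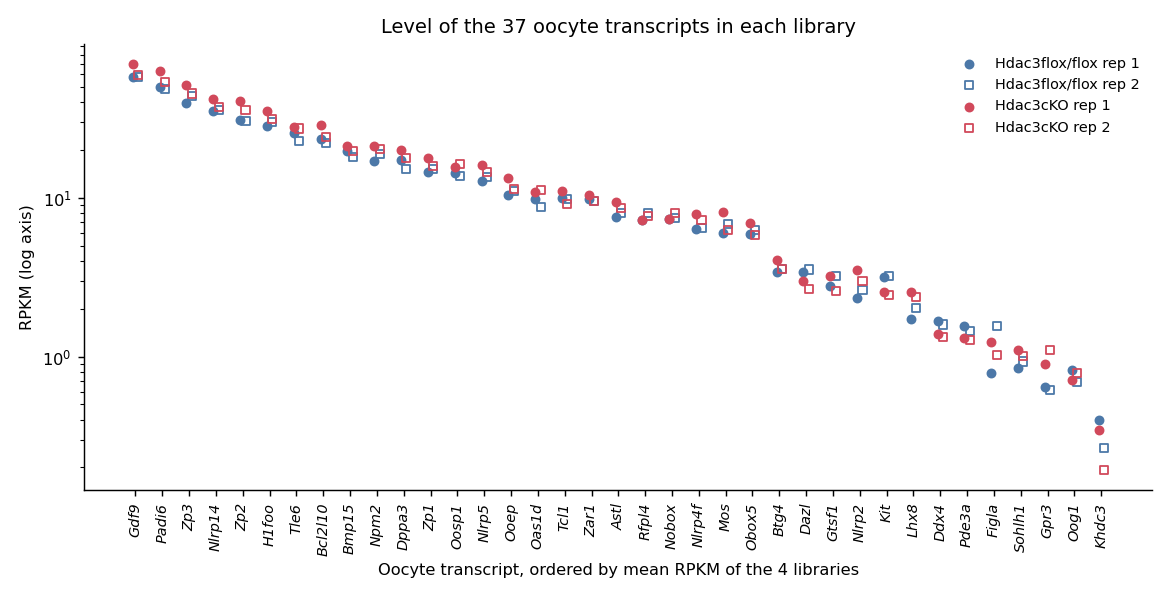
RPKM (log axis) of each of the 37 oocyte transcripts in the 2 Hdac3flox/flox (blue) and 2 Hdac3cKO (red) libraries, with replicate 1 as filled circles and replicate 2 as open squares. The 4 points of a transcript lie close together beside the 204-fold span between transcripts, with Khdc3 at the lower end below 1 RPKM.

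Most members were slightly higher in the Hdac3cKO libraries, but only Zp2 passed the test. Of the 36 members tested, 1 was called higher and 0 were called lower, which is 2.78% of them against 18.7% of all tested genes called in either direction. At an unadjusted p under 0.05 in limma, 14 of the 36 members were higher, against 2274 of all 15528 tested genes (14.6%). In the other direction, 2 of the 36 were lower, against 3350 of all 15528 tested genes (21.6%). Limma voom on recovered reads called 9 higher and 1 lower, which is 27.8% of the members against 29.9% of all tested genes (12.0% of all tested genes higher and 17.9% lower). In 22 of the 36 tested members (61.1%) both Hdac3cKO libraries lay above both Hdac3flox/flox libraries, against 26.7% of all tested genes. The opposite order was found in 4 members (11.1%), namely Kit, Dazl, Ddx4 and Pde3a, against 37.8% of all tested genes. The log2 fold change was above 0 in 29 of the 36 members, against 6804 of all 15528 tested genes (43.8%). It lay between 0 and 0.4 in 28 of these 29 members. The median was 0.18 for the members and −0.04 for all tested genes. Left out one at a time, each of the 4 libraries ended the only call, and in those fits, which keep 1 residual degree of freedom, at most 98 of the 15528 genes were called. Without Hdac3cKO replicate 1 the median of the members was 0.08, and without Hdac3cKO replicate 2 it was 0.25.

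**Figure D2:**
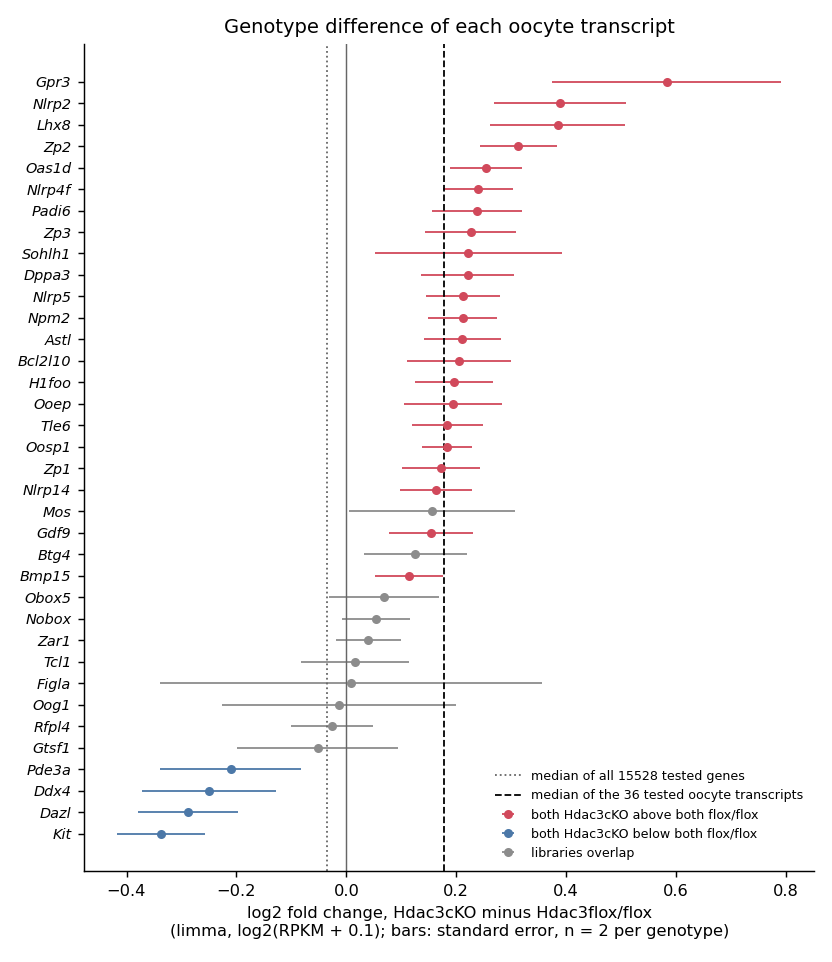
Log2 fold change (Hdac3cKO minus Hdac3flox/flox) of the 36 tested oocyte transcripts, with the standard error from limma (n = 2 per genotype), coloured by whether the libraries of the genotypes overlap. The 22 red points, with both Hdac3cKO libraries above, all lie to the right of 0, the 4 blue points to the left, and the dashed line (members, 0.18) stands apart from the dotted line (all tested genes, −0.04).

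The summed level of the 37 members was 490.8 and 494.1 RPKM in the Hdac3flox/flox libraries and 590.3 and 527.9 RPKM in the Hdac3cKO libraries. Both Hdac3cKO sums lay above both control sums, but Hdac3cKO replicate 1 stood further from replicate 2 than replicate 2 stood from the controls. The mean was 492.5 ± 2.27 RPKM (SD, n = 2) for the controls and 559.1 ± 44.1 RPKM (SD, n = 2) for Hdac3cKO, a ratio of 1.14. Counted as reads, the members took 0.113% of each control library, 0.134% of Hdac3cKO replicate 1 and 0.120% of Hdac3cKO replicate 2. Without the 5 members of highest level the ratio of the summed RPKM was 1.115. In RNA of a whole tissue, a change in the number or size of oocytes relative to the other cells cannot be told apart from a change in the RNA that each oocyte holds.

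Most members also differed in the same direction between the 2 Hdac3cKO libraries. Hdac3cKO replicate 1 held more than Hdac3cKO replicate 2 of 30 of the 36 tested members (83.3%), against 48.3% of all tested genes. It was the highest of the 4 libraries for 25 of them (69.4%), against 20.9% of all tested genes. The median log2 difference between the 2 Hdac3cKO libraries was 0.152 over the members and −0.004 over all tested genes, while between the Hdac3flox/flox libraries it was −0.024 over the members and 0.001 over all tested genes. The difference between replicates of Hdac3cKO was thus nearly as large as the median difference between genotypes, 0.18. Gdf9, the member of highest level, made up between 11.3% and 11.8% of the members' summed RPKM in each library.

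**Figure D3:**
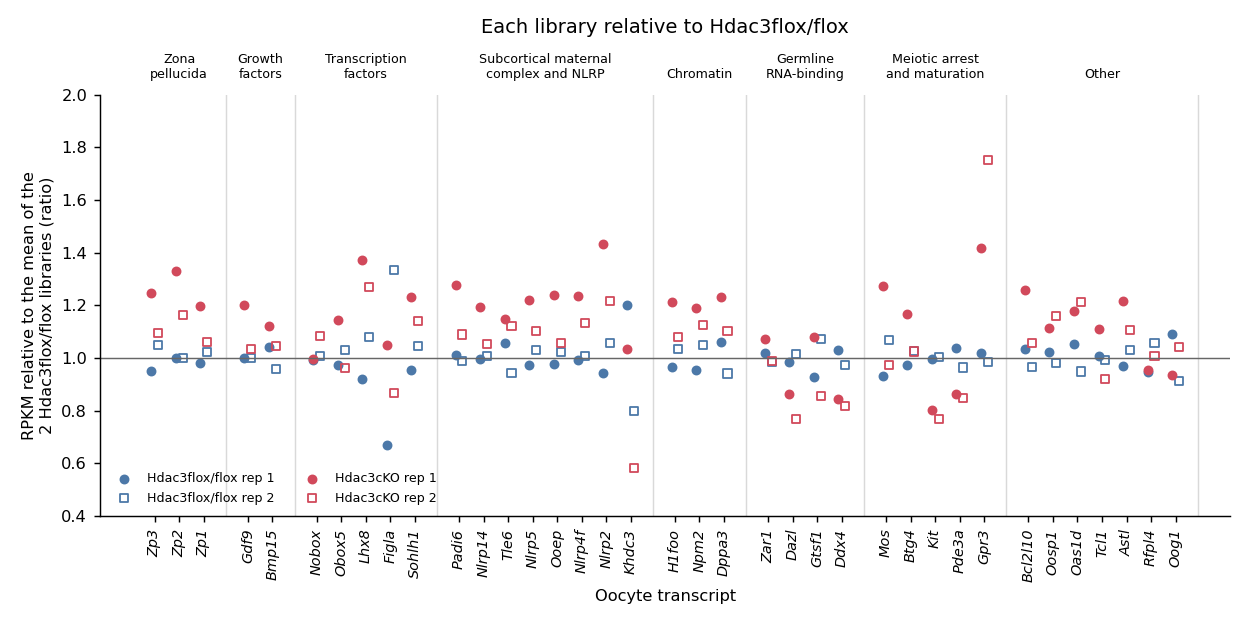
RPKM of each oocyte transcript in each library divided by the mean of the 2 Hdac3flox/flox libraries, grouped by role (Hdac3flox/flox blue, Hdac3cKO red, replicate 1 filled, replicate 2 open). The filled red points of Hdac3cKO replicate 1 lie highest in 25 of the transcripts, whereas Kit, Dazl, Ddx4 and Pde3a have both red points below both blue points.

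With limma on the RPKM values, the zona pellucida genes were the only role group with a called member. Zp2, whose product sperm bind and which is cleaved after fertilization, lies at chr7:120126772-120145291 on the minus strand (GRCm38). It was measured at 30.8 and 30.7 RPKM in Hdac3flox/flox and at 40.8 and 35.8 RPKM in Hdac3cKO, from 1536, 1535, 2053 and 1717 reads. The genotypes did not overlap, and both Hdac3cKO values lay well beyond the near-identical controls. Zp2 rose by a log2 fold change of 0.31 (± 0.070 as its standard error, limma adjusted p = 0.0467, higher in 2 of 2 libraries), and the ratio of summed reads was 1.25 (exact 95% interval from 1.19 to 1.31, counting error only). Leaving out one library at a time gave a log2 fold change of Zp2 between 0.22 and 0.41 with adjusted p between 0.0834 and 0.181, and over all alternatives the adjusted p ran from 0.00195 to 0.181.

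Zp3 encodes the zona protein that pairs with ZP2 in the filaments of the coat. It was measured at 39.4 and 43.6 RPKM in Hdac3flox/flox and at 51.8 and 45.5 RPKM in Hdac3cKO. The genotypes did not overlap, but the nearest libraries were close, and Zp3 was not called (log2 fold change 0.23 ± 0.084 as its standard error, limma adjusted p = 0.133). Zp1, which cross-links the filaments, was measured at 14.6 and 15.3 RPKM in Hdac3flox/flox and at 17.9 and 15.9 RPKM in Hdac3cKO (log2 fold change 0.17, adjusted p = 0.163 from limma). All 3 zona genes were highest in Hdac3cKO replicate 1.

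The oocyte's secreted growth factors of the TGF-beta superfamily, which act on GCs through receptors on their surface, were not called by limma or limma voom, and neither had an unadjusted p under 0.05. Gdf9 (chr11:53431023-53437904) was measured at 58.0 and 57.9 RPKM in Hdac3flox/flox and at 69.5 and 59.8 RPKM in Hdac3cKO. The controls were nearly equal, and the second Hdac3cKO library lay just above them (log2 fold change 0.15 ± 0.077 as its standard error, limma adjusted p = 0.228). Without Hdac3cKO replicate 1 the log2 fold change of Gdf9 was 0.05. Bmp15, its close relative on chromosome X, was measured at 19.7 and 18.1 RPKM in Hdac3flox/flox and at 21.1 and 19.8 RPKM in Hdac3cKO (log2 fold change 0.11, adjusted p = 0.262 from limma). One control library of Bmp15 was almost level with the lower Hdac3cKO library.

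The subcortical maternal complex is a protein assembly under the egg membrane that the early embryo needs, and NLRP proteins related to its subunit NLRP5 are found in mouse oocytes as well. All 7 tested members of this group lay higher in both Hdac3cKO libraries than in both controls, against 26.7% of all tested genes. By limma 0 of the 7 were called, and 5 were higher at an unadjusted p under 0.05, against 14.6% of all tested genes. Limma voom called 6 of the 7 higher, and 12.0% of all tested genes. Padi6, needed for the cytoplasmic lattices of the egg, was measured at 49.8 and 48.5 RPKM in Hdac3flox/flox and at 62.8 and 53.5 RPKM in Hdac3cKO (log2 fold change 0.24 ± 0.082 as its standard error, limma adjusted p = 0.116). Nlrp14 was measured at 35.2 and 35.6 RPKM in Hdac3flox/flox and at 42.2 and 37.2 RPKM in Hdac3cKO (log2 fold change 0.16 ± 0.066 as its standard error, limma adjusted p = 0.159). Tle6, a subunit of the complex, was measured at 25.8 and 23.0 RPKM in Hdac3flox/flox and at 28.0 and 27.4 RPKM in Hdac3cKO (log2 fold change 0.18 ± 0.065 as its standard error, limma adjusted p = 0.120). For Tle6 the Hdac3cKO libraries were close to each other and the controls were further apart. Of the other subunits, Nlrp5, which has a near-identical pseudogene, had a log2 fold change of 0.21 and Ooep one of 0.19.

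Nlrp2, a maternal gene of the same family, had the second largest log2 fold change of the members. It was measured at 2.33 and 2.61 RPKM in Hdac3flox/flox and at 3.54 and 3.01 RPKM in Hdac3cKO, from 150 to 229 reads per library. The genotypes did not overlap (log2 fold change 0.39 ± 0.120 as its standard error, limma adjusted p = 0.0923). Nlrp2 shares 105 exon bases with a pseudogene on the opposite strand and has a near-identical processed pseudogene, and Nlrp4f, with a log2 fold change of 0.24, has neither. Khdc3, a further subunit of the complex, had 15, 10, 13 and 7 reads in the order Hdac3flox/flox 1 and 2 and Hdac3cKO 1 and 2, and was not tested. Khdc3 shares 790 exon bases with Gm20509 on the same strand, so its low level is uncertain.

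The maternal chromatin factors Npm2, H1foo and Dppa3 also lay higher in both Hdac3cKO libraries than in both controls, against 26.7% of all tested genes. H1foo, the linker histone of the oocyte, was measured at 28.3 and 30.2 RPKM in Hdac3flox/flox and at 35.5 and 31.6 RPKM in Hdac3cKO (log2 fold change 0.20 ± 0.070 as its standard error, limma adjusted p = 0.126). Npm2, a histone chaperone that remodels sperm chromatin, was measured at 17.1 and 18.8 RPKM in Hdac3flox/flox and at 21.4 and 20.2 RPKM in Hdac3cKO (log2 fold change 0.21, adjusted p = 0.0845 from limma), and shares 39 exon bases with Xpo7. Dppa3, which protects maternal DNA methylation after fertilization, had a log2 fold change of 0.22 (limma adjusted p = 0.145), and a pseudogene with 98.2% identity may take or add reads. None of the 3 was called by limma or limma voom. In limma 2 of the 3 were higher at an unadjusted p under 0.05, against 14.6% of all tested genes.

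The oocyte transcription factors were all measured below 10 RPKM, and 0 of the 5 were called by limma or limma voom. In limma 1 of the 5 was higher at an unadjusted p under 0.05, against 14.6% of all tested genes. The median log2 fold change of the 5 genes was 0.07. In 2 of them, Lhx8 and Sohlh1, both Hdac3cKO libraries lay above both controls, against 26.7% of all tested genes. Lhx8, a homeobox factor needed for the growth of the primordial follicle, was measured at 1.73 and 2.02 RPKM in Hdac3flox/flox and at 2.57 and 2.38 RPKM in Hdac3cKO, from 80 to 120 reads per library. Both Hdac3cKO values of Lhx8 lay above the controls, and it was not called (log2 fold change 0.38 ± 0.123 as its standard error, limma adjusted p = 0.0989). Sohlh1, a basic helix-loop-helix factor of early oocytes, was measured at 0.847 and 0.930 RPKM in Hdac3flox/flox and at 1.09 and 1.01 RPKM in Hdac3cKO, from 20 to 26 reads (log2 fold change 0.22, adjusted p = 0.409 from limma). At this depth the ratio of its summed reads had an exact 95% interval from 0.769 to 1.84. Nobox was measured at 7.33 and 7.45 RPKM in Hdac3flox/flox and at 7.35 and 8.01 RPKM in Hdac3cKO, so its libraries overlapped (log2 fold change 0.05, adjusted p = 0.586 from limma). Figla had only 12, 24, 19 and 15 reads, and its 2 controls were the lowest and the highest of the 4 libraries, so that a difference was not detectable at this depth (ratio of summed reads 0.960, exact 95% interval from 0.583 to 1.58). Obox5, a homeobox gene with near-identical copies in Obox1, Obox2 and Obox7, had a log2 fold change of 0.07 and is uncertain for that reason.

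The genes of meiotic arrest and maturation lay on both sides. Of the 5, 1 was higher and 2 were lower in both Hdac3cKO libraries than in both controls, against 26.7% and 37.8% of all tested genes. By limma 0 were called. At an unadjusted p under 0.05 in limma, Gpr3 was higher and Kit lower, against 14.6% and 21.6% of all tested genes. Limma voom called 1 lower, against 17.9% of all tested genes. Gpr3 encodes the receptor that keeps cyclic AMP, and with it the arrest, high in the oocyte (chr4:133209340-133212536). It was measured at 0.639 and 0.618 RPKM in Hdac3flox/flox and at 0.892 and 1.10 RPKM in Hdac3cKO, from 32, 31, 45 and 53 reads. The genotypes did not overlap, and Gpr3 had the largest log2 fold change of the tested members, 0.58 (± 0.209 as its standard error, limma adjusted p = 0.125), with a ratio of summed reads of 1.58 (exact 95% interval from 1.14 to 2.21). Gpr3 was higher in Hdac3cKO replicate 2 than in replicate 1, unlike most members, and shares 204 exon bases with Cd164l2 on the opposite strand, from which its reads cannot be told apart where counting ignored the strand. Mos, the kinase that holds the mature egg in metaphase, was measured at 5.99 and 6.88 RPKM in Hdac3flox/flox and at 8.19 and 6.27 RPKM in Hdac3cKO. The genotypes overlapped for Mos (log2 fold change 0.16 ± 0.151 as its standard error, limma adjusted p = 0.514), and without Hdac3cKO replicate 1 the value turned to −0.04. Btg4, which promotes the clearance of maternal RNA, had a log2 fold change of 0.13.

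Kit and Pde3a were lower in both Hdac3cKO libraries than in both controls. Kit, the receptor for the Kit ligand of GCs, lies at chr5:75574916-75656722 and was measured at 3.19 and 3.21 RPKM in Hdac3flox/flox and at 2.56 and 2.46 RPKM in Hdac3cKO. Replicates of Kit were close in both genotypes, and the value just missed the threshold (log2 fold change −0.34 ± 0.080 as its standard error, limma adjusted p = 0.0533, ratio of summed reads 0.786, exact 95% interval from 0.716 to 0.862). With genes of at least 1 RPKM in every library alone, or with limma voom, Kit was called lower, and over all alternatives its adjusted p ran from 0.00404 to 0.203. Pde3a, the phosphodiesterase that breaks down cyclic AMP in the oocyte, was measured at 1.57 and 1.45 RPKM in Hdac3flox/flox and at 1.30 and 1.28 RPKM in Hdac3cKO (log2 fold change −0.21 ± 0.128 as its standard error, limma adjusted p = 0.309). Pde3a shares 741 exon bases with Gm28523 on the opposite strand.

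Both genes are also made by other cells. Kit is a gene of theca and mast cells as well as oocytes, and Pde3a is a gene of smooth muscle too. The 6 theca markers summed to 1119 and 1025 RPKM in Hdac3flox/flox and to 936.1 and 845.7 RPKM in Hdac3cKO, with 1 called higher and 3 lower. The 5 smooth muscle markers summed to 432.9 and 425.0 RPKM in Hdac3flox/flox and to 300.5 and 353.3 RPKM in Hdac3cKO, with 2 of 4 tested called lower. The 5 mast cell markers with a row in the table summed to 1.11 and 0.868 RPKM in Hdac3flox/flox and to 1.94 and 1.85 RPKM in Hdac3cKO, with 0 of 2 tested called by limma or limma voom and 1 at an unadjusted p under 0.05. The theca sum was carried by Cyp17a1 and Cyp11a1 and the smooth muscle sum by Acta2, which were called lower. Insl3 of the theca list was also called lower, from 2.10 and 2.01 RPKM in Hdac3flox/flox to 0.696 and 1.002 RPKM in Hdac3cKO. Myh11 of the smooth muscle list was called lower as well. Other markers lay the other way, since Lhcgr of the theca list was called higher and Des of the smooth muscle list, which was not called, was measured at 6.02 and 5.60 RPKM in Hdac3flox/flox and at 7.002 and 9.75 RPKM in Hdac3cKO. The part of these cell types in the values of Kit and Pde3a was not tested. Without Kit and Pde3a the ratio of the summed RPKM of the other 35 members was 1.14.

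Among the 4 germline RNA-binding genes, Dazl and Ddx4 were lower in both Hdac3cKO libraries than in both controls, against 37.8% of all tested genes. Of the 4, 0 were called by limma or limma voom. In limma 1 was lower at an unadjusted p under 0.05, against 21.6% of all tested genes. Dazl, a regulator of translation in germ cells, was measured at 3.43 and 3.54 RPKM in Hdac3flox/flox and at 3.003 and 2.68 RPKM in Hdac3cKO. The genotypes did not overlap (log2 fold change −0.29 ± 0.091 as its standard error, limma adjusted p = 0.0968), and the ratio of summed reads was 0.816 (exact 95% interval from 0.699 to 0.952). Ddx4, the germ cell helicase also known as mouse vasa homologue, was measured at 1.69 and 1.59 RPKM in Hdac3flox/flox and at 1.38 and 1.34 RPKM in Hdac3cKO, from 71 to 93 reads per library. The values of Ddx4 did not overlap, and it was not called (log2 fold change −0.25 ± 0.122 as its standard error, limma adjusted p = 0.219). As a share of the summed RPKM of all 37 members, Dazl took 0.700% and 0.716% in Hdac3flox/flox and 0.509% and 0.508% in Hdac3cKO, and Kit took 0.649% in both controls and 0.434% and 0.466% in Hdac3cKO. Lower shares follow from the lower values of both genes and the higher sum of the members in Hdac3cKO. They are thus no separate support. Zar1, a maternal gene that binds RNA and has 2 near-identical copies with at most 2 reads in a library, had a log2 fold change of 0.04, and Gtsf1, a gene of the piRNA pathway, one of −0.05, and both overlapped between genotypes.

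Of the remaining 7 members, 4 lay higher in both Hdac3cKO libraries than in both controls, against 26.7% of all tested genes. By limma 0 of the 7 were called, and 3 were higher at an unadjusted p under 0.05, against 14.6% of all tested genes. Limma voom called 1 of the 7 higher, against 12.0% of all tested genes. Bcl2l10, a BCL2 relative made in oocytes, was measured at 23.6 and 22.1 RPKM in Hdac3flox/flox and at 28.7 and 24.1 RPKM in Hdac3cKO (log2 fold change 0.20 ± 0.095 as its standard error, limma adjusted p = 0.204). Oosp1, which encodes an oocyte-secreted protein, and Oas1d, an oocyte member of the oligoadenylate synthetase family, had their highest values in Hdac3cKO replicate 2. Oosp1 was measured at 14.4 and 13.8 RPKM in Hdac3flox/flox and at 15.7 and 16.3 RPKM in Hdac3cKO (log2 fold change 0.18, adjusted p = 0.0602 from limma). Oas1d was measured at 9.78 and 8.82 RPKM in Hdac3flox/flox and at 10.9 and 11.3 RPKM in Hdac3cKO (log2 fold change 0.25, adjusted p = 0.0643 from limma). Both were called higher with median-of-ratios scaling and with a minimum of 1 RPKM in every library, and Oas1d is in part near-identical to Oas1c. Astl, the protease ovastacin that cleaves ZP2, had a log2 fold change of 0.21. Tcl1, a coactivator of AKT kinase, and Rfpl4, a RING finger protein, had log2 fold changes of 0.02 and −0.03, and their libraries overlapped. Oog1 had a log2 fold change of −0.01 and is uncertain, because 4 other genes are near-identical to it, one of them at 99.5% identity.

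A list of further oocyte genes was set beside the members. It held 65 genes, of which 58 were tested. Of these, 5 were called higher and 1 lower, against 7.68% and 11.0% of all tested genes. Their median log2 fold change was 0.18. In 28 of the 58 both libraries of Hdac3cKO lay above both controls, against 26.7% of all tested genes. The called genes with the smallest p were Taf4b, a subunit of the general transcription factor TFIID that is known from granulosa cells as well as germ cells, and 3 F-box genes of 1 family, Fbxw26, Fbxw20 and Fbxw24. Taf4b fell from 5.92 and 6.77 RPKM in Hdac3flox/flox to 3.97 and 4.06 RPKM in Hdac3cKO (log2 fold change −0.65 ± 0.086 as its standard error, limma adjusted p = 0.0167). Its level in whole-ovary RNA cannot be assigned to either cell type. Fbxw20 rose from 2.52 and 2.24 RPKM to 3.46 RPKM in both Hdac3cKO libraries (log2 fold change 0.52, adjusted p = 0.0299 from limma). These F-box genes belong to a cluster of similar genes, and how reads were shared among them was not checked. The list also holds Obox1 and Obox2, near-identical to the member Obox5, and Oas1c, in part near-identical to Oas1d. Reads of the list and of the members are thus not fully separate. The summed level of these further genes was 419.2 and 434.3 RPKM in Hdac3flox/flox and 488.9 and 440.2 RPKM in Hdac3cKO, with Hdac3cKO replicate 1 again the highest. Zbed3, which was not called (log2 fold change 0.04), made up between 107.9 and 119.1 RPKM of each sum.

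Genes of GCs that answer to the oocyte's growth factors were described beside the members. Of 10 receptor and SMAD genes, 1 was called higher and 2 were called lower, against 7.68% and 11.0% of all tested genes. Smad2 rose from 13.6 and 13.1 RPKM in Hdac3flox/flox to 15.5 and 15.7 RPKM in Hdac3cKO (log2 fold change 0.22, adjusted p = 0.0331 from limma). Bmpr1b, a type I receptor of BMP15, fell from 40.9 and 41.4 RPKM in Hdac3flox/flox to 29.2 and 29.5 RPKM in Hdac3cKO (log2 fold change −0.48 ± 0.029 as its standard error, limma adjusted p = 0.00500), and Bmpr2, the type II receptor shared by GDF9 and BMP15, fell from 42.9 and 42.3 RPKM to 35.7 and 36.98 RPKM (log2 fold change −0.23, adjusted p = 0.0197 from limma). Of 15 genes that oocyte factors promote in cumulus cells of the mouse, 8 were called higher and 1 lower, against the same shares. Cyp51 and Mvk of cholesterol synthesis had log2 fold changes of 0.60 and 0.58, and Ldha of glycolysis 0.38. Slc38a3, an amino acid transporter, fell from 27.1 and 36.1 RPKM in Hdac3flox/flox to 5.08 and 5.28 RPKM in Hdac3cKO (log2 fold change −2.57 ± 0.144 as its standard error, limma adjusted p = 0.00445). Of the 15 genes, 12 had a log2 fold change above 0, against 43.8% of all tested genes. In RNA of whole ovaries these values cannot be assigned to GCs, and a link to the oocyte's growth factors was not tested.

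Markers of the other ovarian cells differed between the genotypes as well. The 8 granulosa markers summed to 7487 and 7115 RPKM in Hdac3flox/flox and to 8718 and 8403 RPKM in Hdac3cKO, with 4 called higher, 2 lower and 2 not called. This sum was carried by Inha and Inhbb, which were called higher. Inha alone was measured at 5280 and 4946 RPKM in Hdac3flox/flox and at 6094 and 5776 RPKM in Hdac3cKO. Foxl2, at 156 and 150 RPKM in Hdac3flox/flox and 126 and 128 RPKM in Hdac3cKO, and Fshr were called lower. The 6 endothelial markers summed to 82.3 and 81.6 RPKM in Hdac3flox/flox and to 56.3 and 57.9 RPKM in Hdac3cKO, with 5 called lower. The 5 stromal markers summed to between 326.8 and 329.7 RPKM in Hdac3flox/flox and between 306.0 and 317.3 RPKM in Hdac3cKO, and 2 were called lower. Leukocyte markers stayed under 10 RPKM in sum, with 0 of 3 tested called by limma or limma voom and 1 at an unadjusted p under 0.05. All these values are shares of each library, and the part of these shifts in the oocyte values was not tested.

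**Figure D4:**
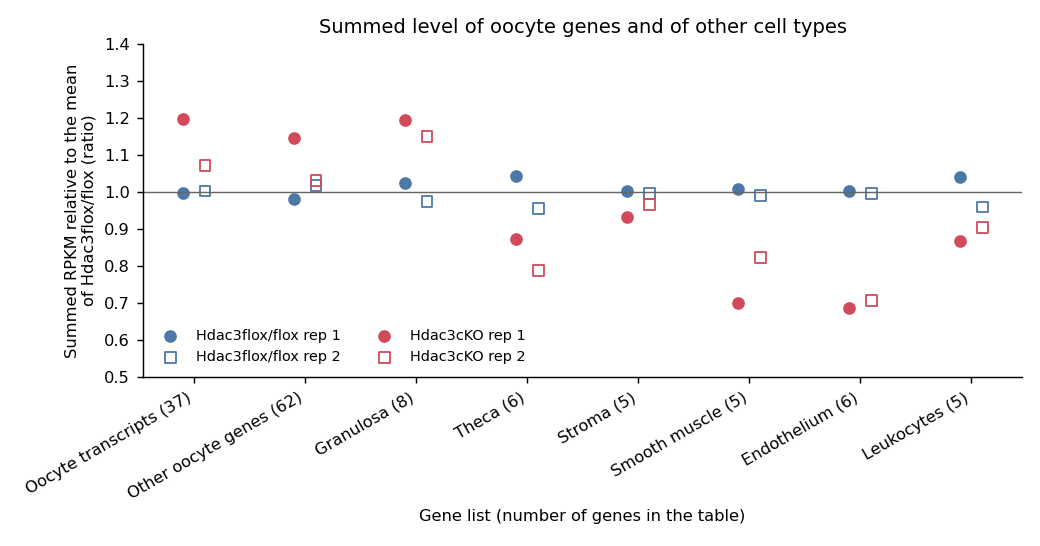
Summed RPKM of the oocyte transcripts, of 62 further oocyte genes and of marker lists of other ovarian cells, each library divided by the mean of the 2 Hdac3flox/flox libraries (blue; Hdac3cKO red, replicate 1 filled, replicate 2 open). The oocyte sums of Hdac3cKO replicate 1 stand apart from those of replicate 2, whereas the endothelial sums of both Hdac3cKO libraries lie together below the controls.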

How the data were processed

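RNA of 4 libraries was compared, 2 of Hdac3flox/flox and 2 of Hdac3cKO. The authors deposited RPKM values in 1 table of 28611 rows named by symbol. The submitters' processing notes list Bowtie (0.12.2) and mm8, whereas for 91% of the 26771 rows matched to GENCODE M21 on GRCm38 the values gave whole reads with its exon lengths (relative tolerance 1e-06), so positions are given on GRCm38. The counting tool and its use of strand are not named in any source used here. Reads were recovered from the RPKM values and the library totals (17621129 to 18452073), for 35 of the 37 members with the annotated length and otherwise as the smallest whole numbers. Each read ratio has a Clopper-Pearson interval (exact, 95%), which covers counting error alone.

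Values were fitted as log2(RPKM + 0.1) by limma 3.58.1 (R 4.3.3, intensity trend without the robust option) with a single genotype term, which left 2 residual degrees of freedom. The 15528 genes tested reached 0.5 RPKM in 2 or more libraries, and p-values were adjusted over all of them by the Benjamini-Hochberg method, with a two-sided threshold of 0.05. A fold change on this scale understates the change of low genes. The fit was tested on simulated data. Alternatives were median-of-ratios scaling, limma voom on recovered reads, other pseudocounts (1 and 0.01), the table without a filter, a minimum of 1 RPKM in every library, a block for the replicate number, and the omission of each library in turn. The members, the gene lists and the tests were chosen with earlier results of these data known. All members are named, with full statistics for called members, the 8 of highest mean RPKM, Kit, Gpr3, Pde3a and Mos, and the 3 largest and 3 smallest log2 fold changes. Of each other list at most 4 called genes are named, those with the smallest p. Des, Zbed3, Inha, Fshr and near-identical copies of members are named besides. GENCODE M21 transcripts were searched by BLAST 2.17.0 for copies of the members, defined by an identity of 95% or more that covers 50% or more of the shorter of the pair. Promoters were read from a RefSeq table on GRCm38.p6. Python 3.11.15, pandas 2.3.3 and matplotlib 3.10.9 were used for tables and plots.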

Additional observations from a re-analysis of the deposited data

How the results depend on the processing

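With 2 libraries per genotype and 7 members under 100 reads in every library, small differences were not detectable at this depth for the lowest members. The number of oocyte transcripts called higher was 1 in the main comparison, 4 with median-of-ratios scaling (Zp2, Nlrp4f, Oas1d and Oosp1), 9 with limma voom on recovered reads, 3 with at least 1 RPKM in every library and 0 with no filter (against 7.68%, 10.5%, 12.0%, 11.0% and 1.43% of all genes tested in these fits), where limma gave 10 members higher and 2 lower at an unadjusted p under 0.05. The number called lower was 0 in the main comparison and 1, Kit, with limma voom and with at least 1 RPKM in every library. Of all genes tested in these 3 fits, 11.0%, 17.9% and 15.9% were called lower. Over all tested genes, 1193 were called higher and 1711 lower, against 1863 and 2774 with limma voom and 410 and 544 with no filter. With 1 library left out, which leaves 1 residual degree of freedom, 0 to 45 genes were called higher and 0 to 53 lower, and 0 members were called higher, while 4075 to 4357 genes had an unadjusted p under 0.05. Zp2 had adjusted p of 0.0834 to 0.181 in these fits. The fewer degrees of freedom come with the construction of these fits, and no other cause was tested.

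With the replicate number as a block, limma called 2 of 36 members higher, Zp2 and Dppa3 (5.56%), against 5.74% of all tested genes. The deviations of libraries with the same number correlated at 0.076 over the tested genes. This value alone cannot show whether such libraries shared a batch.

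The sign of 9 members changed in at least 1 alternative. Figla went to −0.011 with a pseudocount of 1, Oog1 to 0.025 and Rfpl4 to 0.017 with median-of-ratios scaling, in log2 units. The fits without 1 library gave −0.448 to 0.465 for Figla, −0.007 to 0.115 for Nobox, −0.035 to 0.346 for Mos, −0.017 to 0.098 for Zar1, −0.127 to 0.101 for Oog1, −0.118 to 0.149 for Tcl1, −0.104 to 0.053 for Rfpl4, −0.212 to 0.108 for Gtsf1 and −0.055 to 0.191 for Obox5, and the cause was not tested. The log2 fold changes of the other tested members kept their sign in every alternative run.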
